A study of Mus musculus with 8 samples.

Results

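Heat shock proteins and chaperones were followed through 10 genes on microarrays of interscapular adipose tissue from mice injected with *Porphyromonas gingivalis*. The genes were *Hspa1a*, *Hspa1b*, *Hspa8*, *Hspa5* and *Hsph1* of the Hsp70 and Hsp110 family, *Hsp90aa1* of the Hsp90 family, the J protein gene *Dnajb1*, and the small heat shock protein genes *Hspb1*, *Cryab* and *Hspb7*. They were chosen by name, and every probe that the array annotates with one of these names was taken, which gave 20 of the 56605 probes and 10 of the 37325 gene names on the array. Male C57BL/6J mice aged 12 weeks received sonicated *P. gingivalis* (1e+08 colony-forming units in 100 μL of saline, once into a vein; Pg mice) or saline alone (Co mice). Tissue labelled as brown adipose tissue was taken 18 h later from 4 mice per group, and its RNA was hybridized to 1-color arrays.

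Heat shock proteins are molecular chaperones. Hsp70 proteins bind and release unfolded protein with the help of J proteins, Hsp90 proteins hold signaling proteins such as steroid receptors and kinases in a form that can be activated, and small heat shock proteins keep unfolding proteins from clumping. In the cytosol, the inducible members are switched on by heat shock factor 1 when unfolded protein builds up, whereas the endoplasmic reticulum (ER) has its own Hsp70, encoded by *Hspa5*, which is switched on by the unfolded protein response.

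The values below are log2 signals after quantile normalization over the 8 arrays, and a log2 fold change is the mean of the Pg arrays minus the mean of the Co arrays. Brightness differs between probes for reasons other than RNA amount, so levels were compared only within a probe. Of the 20 probes, 18 were well above background on all 8 arrays and none was saturated. The other 2, 1 probe each of *Hsph1* and *Hsp90aa1*, were above background on 3 arrays and on 1 array, and were not tested.

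A few facts on the arrays bear on all values. *Ucp1*, the uncoupling protein that defines brown fat, was not above background on any array, and the same held for *Bmp8b*, *Elovl3* and *Slc27a2*. By contrast, 9 of 14 markers of brown adipocytes and all 20 skeletal muscle markers were above it on all 8. Marker lists were read with every tested marker at equal weight (the mean of their log2 signals on an array), because a summed signal is carried by the brightest probes. The mean of the 20 muscle markers ranged from 16.81 to 17.20 on Co arrays and from 16.56 to 17.17 on Pg arrays, and that of the 10 endothelial markers from 10.77 to 11.13 and from 10.99 to 11.12. It was 10.93 to 11.66 and 10.91 to 11.76 for 10 adipocyte markers, 10.31 to 10.37 and 10.12 to 10.48 for the 10 brown adipocyte markers tested, 9.77 to 10.39 and 9.61 to 10.90 for 10 macrophage markers, and 7.32 to 7.56 and 7.48 to 8.59 for the 7 neutrophil markers tested. The groups overlapped in all 6 lists. The summed signal overlapped too in all but the endothelial list, where it was 14.86 to 15.12 against 15.25 to 15.35, and *Egfl7* alone made up 51.3% of that sum.

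Single markers differed more. *Atp2a1* of muscle fell, the endothelial *Kdr* and *Egfl7* rose, and no other marker passed an adjusted p of 0.1. The tested markers that were higher and lower in Pg mice numbered 3 and 17 for muscle, 7 and 0 for neutrophils, 8 and 2 for adipocytes and for macrophages alike, 7 and 3 for the endothelium, and 5 and 5 for brown adipocytes. The endothelial *Pecam1* was lower on every Pg array than on any Co array (-0.20, limma adjusted p = 0.151). The neutrophil gene *S100a8* was at 8.59, 8.32, 5.18 and 6.76 on Pg arrays, against 4.56 to 5.33 on Co arrays (limma adjusted p = 0.132), and *S100a9* was highest on Pg replicates 1 and 2 too. Among muscle genes *Myh4* ranged from 11.38 to 17.07 over the 8 arrays and was lowest on Pg replicate 1 and Co replicate 3, while probes such as *Tnnt3* and *Tnni2* sat at the top of the normalized scale, where values can hardly move. Pg arrays had fewer probes above background (31135 to 34066) than Co arrays (34761 to 35831). All 8 arrays lay on 1 slide, Co mice in the first row and Pg mice in the second, so row and group cannot be told apart. The replicate number was also the slide column. In bulk tissue, fewer cells of a type and less RNA per cell cannot be told apart either. The part of marker levels and array position in the results below was not tested.

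None of the 18 tested member probes met the definition of a differentially expressed gene (a false discovery rate q below 0.1 with more than 1.5-fold change), against 1.61% of the 33820 probes tested. A q under 0.1 was reached by 2 of them, 1 higher (*Hsp90aa1*) and 1 lower (*Hspa8*), against 7.82% of all probes. For 5 probes no Pg array lay within the range of the Co arrays, against 15.8% of all probes; 2 of them were higher (against 4.83%) and 3 lower (against 11%) in Pg mice. An unadjusted p under 0.05 was reached by 4, against 22.8%. The median log2 fold change of the member probes was -0.06, beside -0.04 over all probes. Of the 18 probes, 7 were higher and 11 lower in Pg mice (3 and 15 when arrays were scaled to their 75th percentile). The counts rest on few probes, of which 4 read the single gene *Hspa8*, and nothing particular to the members is read from them.

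**Figure D1:**
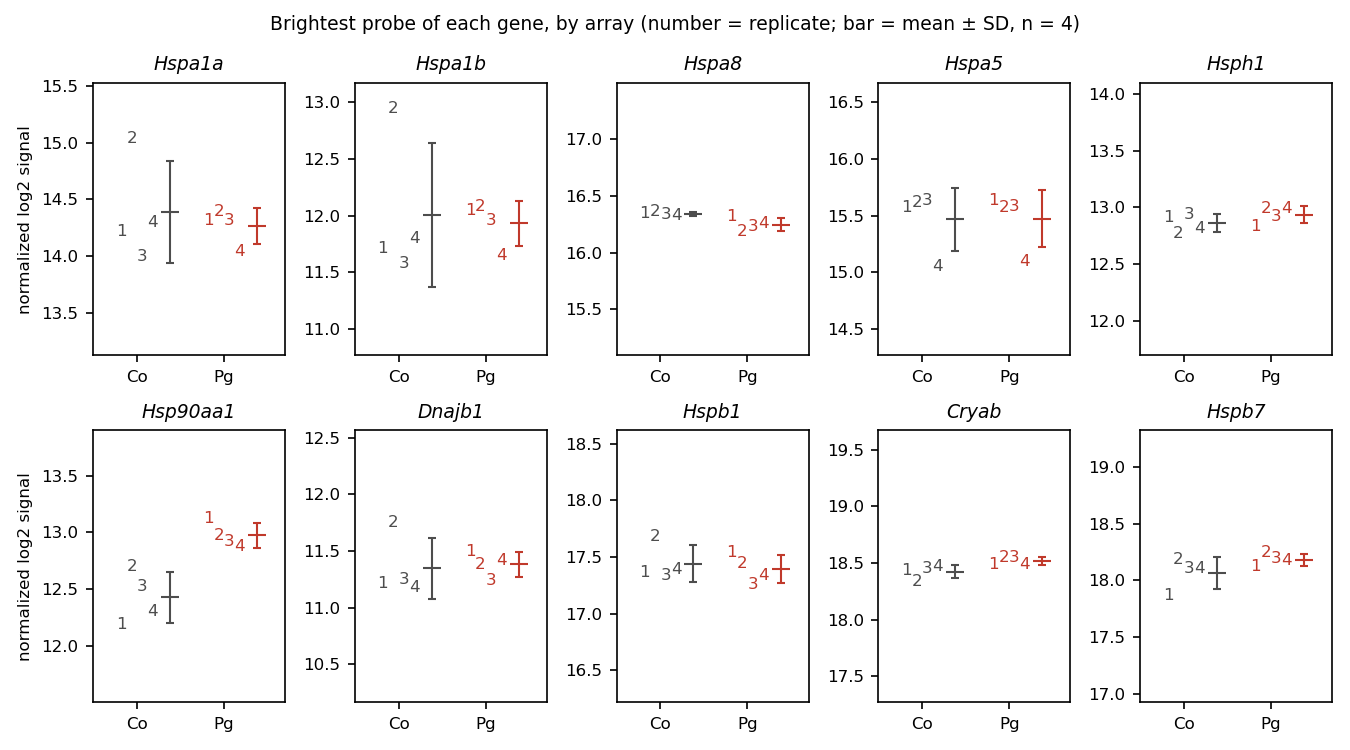
The brightest probe of each of the 10 genes is plotted on each array (digits give the replicate number, Co in gray and Pg in red, bars the mean ± SD of 4 arrays), with the same span of log2 signal in every panel. Only *Hsp90aa1*, *Hspa8* and *Cryab* have groups that do not overlap, while Co replicate 2 stands high for *Hspa1a*, *Hspa1b*, *Dnajb1* and *Hspb1*, and replicate 4 of both groups stands low for *Hspa5*.

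Because the probes of a gene did not all read the same change, the sequences of the probes with a call are shown with those of the same transcript. *Hspa8*, which encodes the constitutive cytosolic Hsp70 (Hsc70), has 4 probes on chromosome 9, on the plus strand (coordinates of build mm9, as in the array files). They are given here from the 5′ to the 3′ end of the transcript, and each has a reading frame without a stop codon over its 60 bases. The last one lies over 296 bases of genome, with a gap in its alignment.
Hspa8, chr9:40610620-40610679: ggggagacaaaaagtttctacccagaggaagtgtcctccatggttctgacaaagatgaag
Hspa8, chr9:40611362-40611421: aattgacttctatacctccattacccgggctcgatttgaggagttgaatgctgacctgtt
Hspa8, chr9:40611841-40611900: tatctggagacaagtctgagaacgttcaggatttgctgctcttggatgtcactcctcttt
Hspa8, chr9:40612755-40613050: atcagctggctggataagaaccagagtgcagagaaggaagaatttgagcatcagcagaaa

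*Hsp90aa1*, which encodes the inducible cytosolic Hsp90, has 2 tested probes on chromosome 12, on the minus strand, again from 5′ to 3′ of the transcript and each with an open frame. The second lies over 286 bases of genome, with a gap.
Hsp90aa1, chr12:111933318-111933377: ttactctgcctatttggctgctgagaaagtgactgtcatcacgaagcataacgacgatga
Hsp90aa1, chr12:111932511-111932796: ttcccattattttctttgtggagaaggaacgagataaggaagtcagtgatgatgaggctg

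*Hsp90aa1* rose on its 3′ probe. The log2 signals were 12.19, 12.70, 12.52 and 12.31 on the 4 Co arrays and 13.13, 12.97, 12.92 and 12.88 on the 4 Pg arrays. Every Pg array was above every Co array. The means were 12.43 ± 0.23 and 12.97 ± 0.11 (SD, n = 4 each), a log2 fold change of 0.55 (SE 0.12, 95% confidence interval 0.27 to 0.82), or 1.46-fold, with a limma adjusted p of 0.0645. The share of all probes that passed this threshold upward was 1.82%. On the 5′ probe the signals were 11.89, 12.71, 12.48 and 12.35 on Co arrays and 12.70, 12.45, 12.51 and 12.57 on Pg arrays. The groups overlapped there, since Co replicate 2 was the highest of the 8, and the log2 fold change was 0.20 (SE 0.16, limma adjusted p = 0.50). The call on the 3′ probe was fragile. It was kept in only 2 of the 8 fits that left out 1 array (without Co replicate 2, where the log2 fold change of 0.64 also passed the fold threshold, and without Pg replicate 3), with adjusted p from 0.0849 to 0.126 over the 8.

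*Hspa8* fell on its 5′-most probe. The signals were 13.07, 13.22, 13.16 and 13.09 on Co arrays and 12.92, 12.82, 12.89 and 12.70 on Pg arrays. The groups did not overlap, and the means were 13.13 ± 0.07 and 12.84 ± 0.10 (SD, n = 4 each). The log2 fold change was -0.30 (SE 0.07, 95% confidence interval -0.46 to -0.14, limma adjusted p = 0.0695), and 6% of all probes passed this threshold downward. Toward the 3′ end the log2 fold changes of the next 3 probes were -0.19 (adjusted p = 0.162), -0.14 (0.201) and -0.10 (0.305), and none of these passed the threshold. The arrays did not overlap on the second and on the 3′-most probe, whose signals were 16.33 to 16.37 in Co mice and 16.19 to 16.32 in Pg mice. The call on the 5′-most probe was kept in 1 of the 8 fits that left out 1 array, the one without Pg replicate 3.

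**Figure D2:**
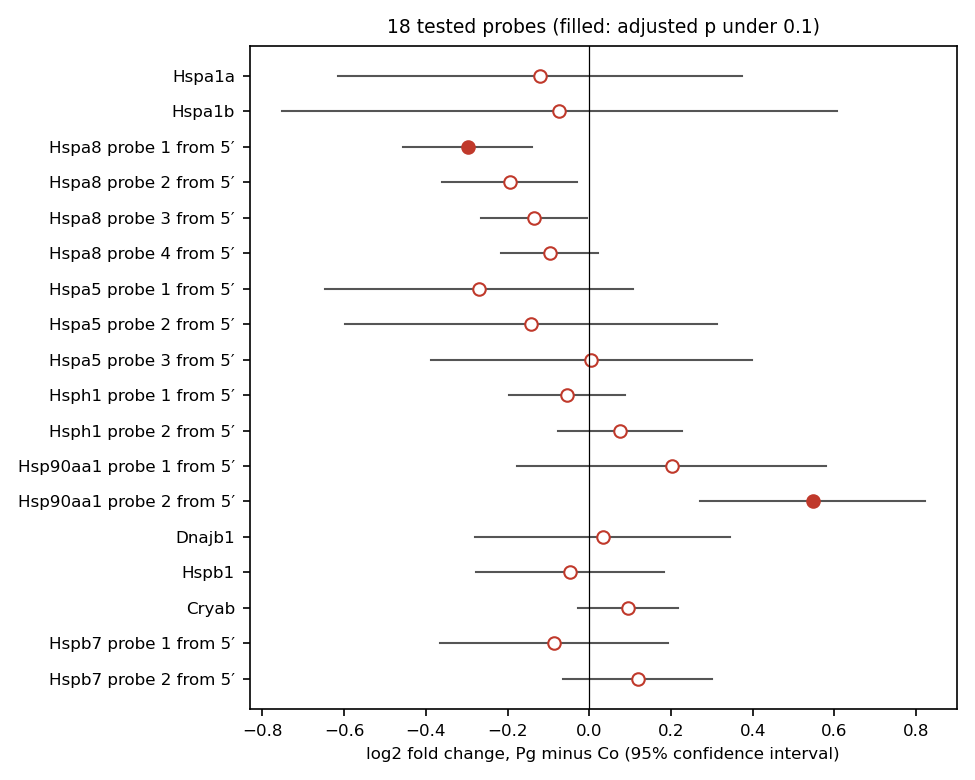
Log2 fold changes (Pg minus Co) of the 18 tested probes are shown with their 95% confidence intervals, ordered by family and, within a gene, from the 5′ to the 3′ end of the transcript. The 2 filled points, the 5′-most probe of *Hspa8* at -0.30 and the 3′ probe of *Hsp90aa1* at 0.55, are the ones with an adjusted p under 0.1.

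The 5 genes with several tested probes shared a pattern along the transcript. In each of them the log2 fold change was more positive at every step from the 5′-most to the 3′-most probe. Besides *Hspa8* and *Hsp90aa1*, it went from -0.27 through -0.14 to 0.00 in *Hspa5*, from -0.09 to 0.12 in *Hspb7* and from -0.05 to 0.08 in *Hsph1*, so that the direction of the last 3 genes depended on the probe. None of these 7 probes passed the test. The probes of all 5 genes also grew brighter in the same order. On Co arrays the mean signal went from 13.13 to 16.34 in *Hspa8* and from 12.36 to 12.43 in *Hsp90aa1*. It went from 13.23 to 15.47 in *Hspa5*, from 15.56 to 18.06 in *Hspb7* and from 11.59 to 12.86 in *Hsph1*. Probe position and probe brightness cannot be told apart here. The difference between the 3′-most and the 5′-most probe was larger in every Pg mouse than in every Co mouse for *Hspa8*, *Hspa5* and *Hsp90aa1* (exact permutation test, two-sided, p = 0.0286 each), and it overlapped for *Hspb7* and *Hsph1* (p = 0.0857 each). These 5 tests were unadjusted and were chosen after the values were seen.

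The array as a whole held the same pattern. Among 4045 transcripts with several tested probes that were above background on all 8 arrays, the 3′-most probe had the more positive log2 fold change in 71.7%, and 65.8% rose at every step. The median difference between the end probes was 0.12. The median over these transcripts of the 3′ minus the 5′ signal was 1.89 to 1.91 on Co arrays and 1.96 to 2.04 on Pg arrays (p = 0.0286 in an exact two-sided permutation test). The groups were also apart without normalization between arrays, with normexp background correction and with the median signal. The labeling kit copies RNA from its poly(A) tail, so this measure can vary with RNA length. The 3′-most probe was also the brighter one by this median, so the measure can equally vary with probe brightness. The sample labels give no measure of RNA quality, and RNA length and brightness were not told apart. The 3′ minus 5′ signal moved with the group, and its part in the *Hspa8* and *Hsp90aa1* differences was not tested.

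**Figure D3:**
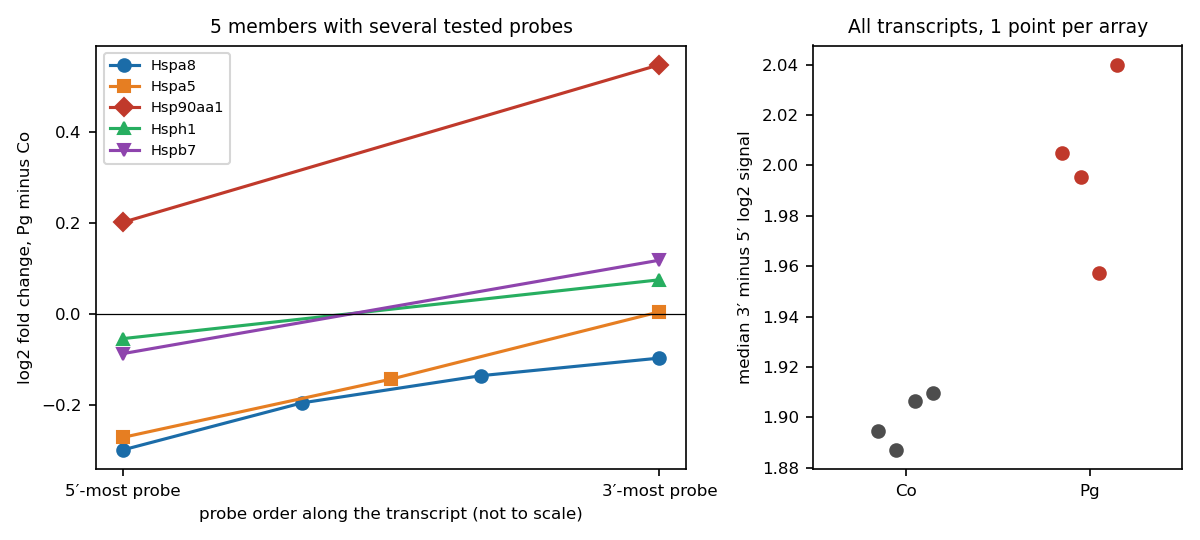
Left, the log2 fold change (Pg minus Co) of each tested probe of the 5 genes with several, in order along the transcript; all 5 lines rise from the 5′-most to the 3′-most probe. Right, the median difference between the 3′-most and the 5′-most probe over 4045 transcripts, 1 point per array; the 4 Pg arrays lie above the 4 Co arrays.

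The stress-inducible Hsp70 genes *Hspa1a* and *Hspa1b* differed far more between Co mice than between the groups. They lie side by side on chromosome 17, and their proteins are nearly identical. Their array probes differ in sequence, and the longest run that both hold is 5 bases. For *Hspa1a* the signals were 14.22, 15.04, 13.996 and 14.30 on Co arrays and 14.32, 14.39, 14.32 and 14.04 on Pg arrays. For *Hspa1b* they were 11.71, 12.95, 11.58 and 11.80 on Co arrays and 12.05, 12.09, 11.95 and 11.65 on Pg arrays. In both genes Co replicate 2 was the highest of the 8 arrays, Co replicate 3 the lowest and Pg replicate 2 the second highest.

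Co replicate 2 was 1.82-fold above the mean of the other Co mice for *Hspa1a* and 2.38-fold above it for *Hspa1b*. The log2 fold changes between the groups were -0.12 (SE 0.21) and -0.07 (SE 0.29), with limma adjusted p of 0.769 and 0.902. Their 95% confidence intervals, -0.62 to 0.37 and -0.75 to 0.61, leave room for changes in either direction. Without Co replicate 2 the log2 fold changes were 0.10 and 0.24 (adjusted p = 0.689 and 0.343), and *Hspa1b* was also above 0 without Pg replicate 4 (0.02), so the sign of both depended on single arrays.

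Other features of Co replicate 2 were also apart. Of the 10 adipocyte markers 6 had their highest Co value there, among them *Cidec* (12.25, other Co arrays 10.07 to 10.17), *Adipoq* (11.31, others 9.61 to 10.21) and *Cfd* (13.84, others 12.68 to 13.24). Its signal at the 75th percentile of probes before normalization was the lowest of the 8 arrays (406 against 446 to 488), and it had the most outlier spots (150 against 90 to 121). Pg replicate 1 was high in the same markers (*Cidec* 11.81, *Cfd* 14.29), and it was the highest Pg array for *Dnajb1* and *Hspb1*, though not for *Hspa1a* or *Hspa1b*. The part of these features in the heat shock gene levels of Co replicate 2 was not tested.

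The same array was the highest for *Dnajb1*, the J protein that works with inducible Hsp70, and for *Hspb1*, the small heat shock protein Hsp27 (Hsp25 in mice). For *Dnajb1* the signals were 11.21, 11.75, 11.25 and 11.18 on Co arrays and 11.49, 11.38, 11.24 and 11.41 on Pg arrays. For *Hspb1* they were 17.36, 17.68, 17.34 and 17.39 on Co arrays and 17.54, 17.44, 17.25 and 17.34 on Pg arrays. The groups overlapped in both, with log2 fold changes of 0.03 (SE 0.13, limma adjusted p = 0.904) and -0.05 (SE 0.10, adjusted p = 0.808). Without Co replicate 2 they were 0.17 (adjusted p = 0.295) and 0.03 (0.858).

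The promoters of these genes were searched for the 2-unit heat shock element, the letters GAANNTTC or TTCNNGAA, on both strands. The sequences are those of RefSeq on build GRCm38.p6, and each window runs from 250 bases before the start of a transcript to 50 after it. A promoter was given for 7 of the 10 genes. The element lay in 4 of them (*Hspa1a*, *Hspa1b*, *Hspb1* and *Hsph1*), and in 15.1% of 32851 promoters of the same length. An element with 3 units in a row was found in *Hsph1* alone among the members, and in 0.603% of all promoters. The 250 bases before the start are the same in *Hspa1a* and *Hspa1b* at 247 positions. By the brightest probe, 5 of the 10 members were highest on Co replicate 2, against 11.6% of all genes tested, a count chosen after the values were seen. These were *Hspa1a*, *Hspa1b*, *Hspb1*, *Dnajb1* and the constitutive *Hspa8*, for which no promoter was given. *Hsph1* was lowest on that array on its 3′ probe. The stretches that hold the element, in capitals, are given here for *Hspa1a*, *Hspa1b* and *Hspb1*, 5′ to 3′ in the direction of transcription (minus strand for both Hsp70 genes, plus strand for *Hspb1*).
Hspa1a, chr17:34972233-34972280: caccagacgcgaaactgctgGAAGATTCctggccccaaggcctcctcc
Hspa1b, chr17:34959315-34959362: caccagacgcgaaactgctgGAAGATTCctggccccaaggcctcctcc
Hspb1, chr5:135887782-135887849: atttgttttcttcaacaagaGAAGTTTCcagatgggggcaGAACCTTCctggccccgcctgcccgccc

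The *Dnajb1* windows held no match. A match is a description of the letters and not of binding.

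*Hspa5*, which encodes the ER Hsp70 BiP (GRP78), did not pass the test on any of its 3 probes but set the same arrays apart on all of them. On the 3′-most probe the signals were 15.58, 15.61, 15.63 and 15.05 on Co arrays and 15.63, 15.57, 15.58 and 15.10 on Pg arrays. Co replicate 4 and Pg replicate 4 were both low, and the other 6 arrays lay within 15.57 to 15.63. The 2 low arrays share column 4 of the slide, so mouse and array position cannot be told apart here. The mean of these 2 arrays was below the mean of the other 6 by 0.50, 0.62 and 0.53 log2 units on the probes from 5′ to 3′. The log2 fold change between the groups was 0.00 (SE 0.17, 95% confidence interval -0.39 to 0.40) on the 3′-most probe and -0.01 (SE 0.06) without the 2 arrays.

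Other ER chaperones were low on the same arrays. Of 14 genes listed as ER chaperones, 10 had both their lowest Co value on Co replicate 4 and their lowest Pg value on Pg replicate 4, against 10.8% of all genes tested. The count was chosen after the *Hspa5* values were seen. For *Manf*, a secreted ER stress protein, the signals were 11.89, 11.82, 11.89 and 10.96 on Co arrays and 11.81, 11.56, 11.91 and 11.14 on Pg arrays. For *Sdf2l1*, a partner of ER J proteins, they were 9.63, 9.62, 9.996 and 9.09 on Co arrays and 9.59, 9.79, 9.80 and 9.21 on Pg arrays. Between the groups none of the 14 passed the test, with 7 higher and 7 lower.

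An ER stress element (CCAAT and CCACG parted by 9 bases) lay in the *Hspa5* promoter and in 0.119% of all promoters. It is shown in capitals, on the plus strand, since *Hspa5* is the member that moved with the ER genes.
Hspa5, chr2:34772005-34772063: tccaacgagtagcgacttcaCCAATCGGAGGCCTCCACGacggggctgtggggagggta

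**Figure D4:**
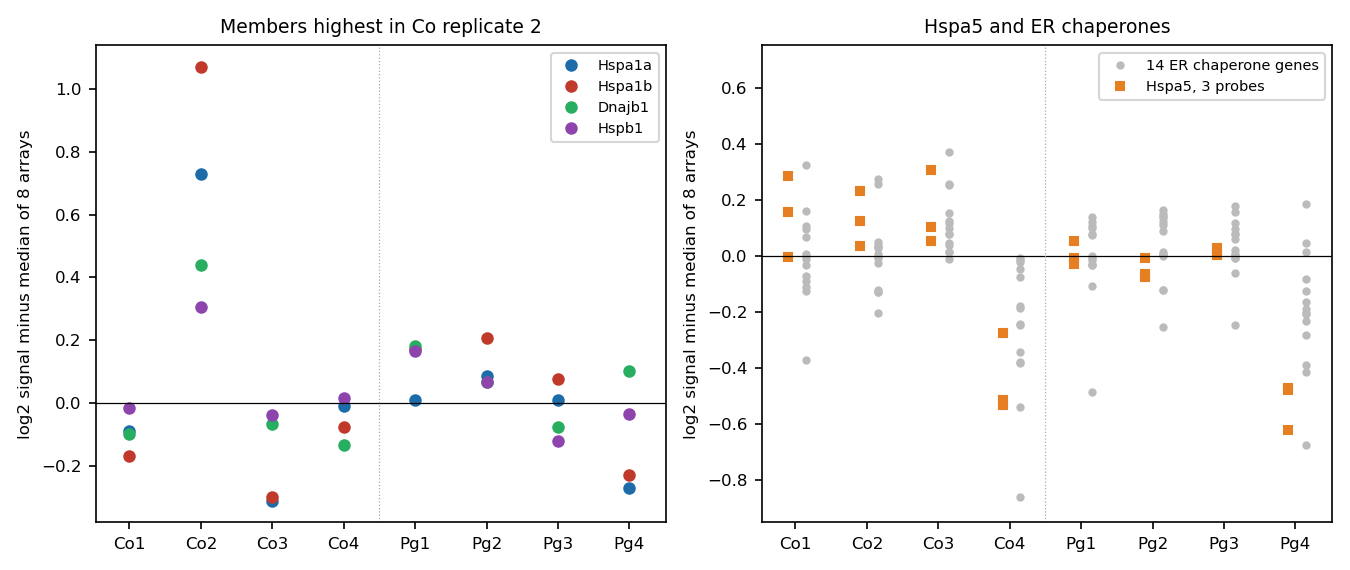
Each point is a log2 signal minus the median of the 8 arrays for that probe. Left, *Hspa1a*, *Hspa1b*, *Dnajb1* and *Hspb1* are highest on Co replicate 2, with *Hspb1* the closest to the other arrays; right, the 3 *Hspa5* probes (squares) are lowest on replicate 4 of each group, and most of the 14 ER chaperone genes (gray) are low there too. *Hspa8*, whose brightest probe is also highest on Co replicate 2, is not drawn.

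The small heat shock protein genes known for high expression in striated muscle, *Cryab* (αB-crystallin) and *Hspb7*, changed little. For *Cryab* the signals were 18.43, 18.34, 18.45 and 18.47 on Co arrays and 18.49, 18.55, 18.55 and 18.49 on Pg arrays. The groups did not overlap, but the log2 fold change of 0.09 (SE 0.05) had a limma adjusted p of 0.330, and it was -0.08 when arrays were scaled to their 75th percentile and -0.03 without normalization. Before normalization the *Cryab* signals of the groups overlapped, at 346988 to 388048 on Co arrays and 340250 to 380724 on Pg arrays. For *Hspb7* the 3′ probe gave 17.86, 18.18, 18.11 and 18.11 on Co arrays and 18.12, 18.25, 18.19 and 18.17 on Pg arrays, with a log2 fold change of 0.12 (SE 0.08, adjusted p = 0.412) that was 0 to 2 decimals under the 75th percentile. The 5′ probe gave -0.09 (SE 0.12), and the groups overlapped on both probes.

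*Hsph1*, which encodes an Hsp110 that acts as a nucleotide exchange factor of Hsp70, overlapped on both tested probes. The 3′ probe gave 12.91, 12.77, 12.94 and 12.82 on Co arrays and 12.83, 12.99, 12.92 and 12.99 on Pg arrays, a log2 fold change of 0.08 (SE 0.07, limma adjusted p = 0.528). Co replicate 2 was the lowest of the 8 arrays here, unlike in the genes of inducible Hsp70.

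Beyond the 10 genes, 77 other chaperone genes were grouped into 8 lists, and all 77 were tested, each by its brightest probe. A q under 0.1 was reached by 2 of them, 1 in each direction, against 6.25% of the 22455 genes tested in the same way. None was a differentially expressed gene, 47 were higher and 30 lower in Pg mice (38 and 39 when arrays were scaled to their 75th percentile), and the median log2 fold change was 0.04, beside -0.01 over all genes. These directions are those of the brightest probe, and in 24 of the 39 genes with several tested probes at least 1 other probe ran the opposite way. No Pg array lay within the Co range for 7 of the 77, against 14.3% of all genes.

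Both calls fell among the 14 genes of the Hsp90 family and its co-chaperones. *Ahsa1*, which encodes the co-chaperone Aha1 that speeds the ATPase of Hsp90, rose from 15.29, 15.32, 15.38 and 15.26 on Co arrays to 15.49, 15.53, 15.52 and 15.54 on Pg arrays, with a log2 fold change of 0.21 (SE 0.05, limma adjusted p = 0.0771). *Trap1*, which encodes the mitochondrial Hsp90, fell from 12.57, 12.52, 12.50 and 12.50 to 12.26, 12.33, 12.35 and 12.24, with a log2 fold change of -0.23 (SE 0.05, adjusted p = 0.0683). Neither gene's groups overlapped, and both were read by 1 tested probe, so a difference along the transcript could not be seen. Their log2 fold changes kept their size when 1 array was left out, but *Ahsa1* lost its call in all 8 such fits (adjusted p = 0.114 to 0.153) and *Trap1* in all but the one without Pg replicate 3 (0.0832 to 0.144). *Ahsa1* also lost it when arrays were scaled to their 75th percentile (0.164), and both genes lost it without normalization between arrays (0.249 and 0.284) and with a replicate block (0.160 and 0.150). The largest difference of the list was in *Fkbp5*, a co-chaperone of steroid receptors, at -0.61 (SE 0.22, adjusted p = 0.161). Its signals were 13.24, 12.93, 12.23 and 12.90 on Co arrays and 12.24, 11.94, 12.57 and 12.10 on Pg arrays. The groups overlapped, since Co replicate 3 lay below Pg replicates 1 and 3. The constitutive Hsp90 gene *Hsp90ab1* had a log2 fold change of 0.11 (SE 0.06, adjusted p = 0.362), and the ER Hsp90 gene *Hsp90b1* had one of 0.07 (SE 0.15).

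In the other lists no gene passed the test, but other settings called *Dnajb2* (0.20, limma adjusted p = 0.0766 with the median signal), *Dnajb5* (0.0899 with the median signal and 0.0898 when background was to be passed on all 8 arrays) and *Hspa2* (0.0685 without Pg replicate 3). Of 9 further genes of the Hsp70 and Hsp110 family, 6 were higher and 3 lower, with the largest differences in *Hspa2* (-0.31, SE 0.12) and *Hspa4* (0.16, SE 0.06, the opposite direction from its 3 other tested probes). Of 10 J proteins of the cytosol and nucleus, 6 were higher and 4 lower, led by *Dnajb5* at -0.29 (SE 0.09, limma adjusted p = 0.109) and *Dnaja4* at 0.23 (SE 0.08). The 10 chaperonin genes, which build the barrels that fold actin and tubulin in the cytosol and proteins in mitochondria, were split 6 to 4, with *Tcp1* at -0.17 (SE 0.06) and *Cct5* at 0.12 (SE 0.06). For *Dnajb5*, *Tcp1* and *Cct5* 1 other tested probe ran the opposite way.

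Among the 14 ER chaperones the largest differences were in *Hyou1* at -0.32 (SE 0.15, with 1 of 3 probes in the opposite direction) and *Canx* at 0.18 (SE 0.06). The 4 genes of heat shock factors and their regulator held *Hsf1*, the main activator of the inducible genes, at 0.04 (SE 0.06), with *Hsf4* at -0.17 (SE 0.08) and *Hsbp1* at 0.11 (SE 0.05) the furthest from 0. Of 10 nucleotide exchange factors and Hsp70 partners, 5 were higher and 5 lower, with *Bag4* at -0.32 (SE 0.17) and *Hspbp1* at -0.19 (SE 0.08). Of 6 further small heat shock proteins, 4 were higher and 2 lower, with *Hspb9* at -0.20 (SE 0.10) and *Hspb3* at 0.12 (SE 0.06).

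**Figure D5:**
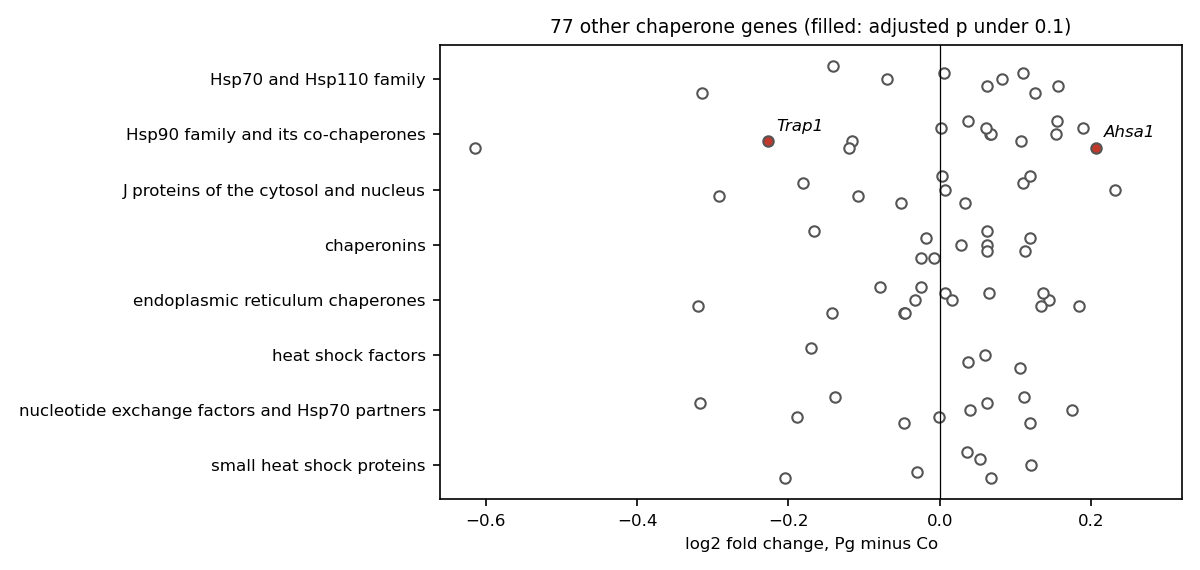
Each point is the log2 fold change (Pg minus Co) of 1 of 77 chaperone genes other than the 10 members, by list, with vertical offsets only for legibility. The 2 filled points, *Trap1* at -0.23 and *Ahsa1* at 0.21, have an adjusted p under 0.1; *Fkbp5* is the point furthest to the left, at -0.61.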

How the data were processed

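RNA of 4 Co and 4 Pg mice was hybridized to Agilent SurePrint G3 arrays, 1 array per mouse. Per the file headers, the deposited scanner files hold Cy3 intensity values from Feature Extraction 11.0.1.1, background-subtracted, with flags per spot; coordinates are on mm9. The deposited value table holds log2 values normalized by the authors, 1 row per transcript. Its differences between the groups lay nearer the mean of a transcript's probes than the probe it names for 4565 of 6303 transcripts with several probes. It was used as an alternative.

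From the processed intensity, population outlier spots were dropped, spots of a probe averaged, arrays quantile-normalized, values below 1 set to 1, and log2 taken. A probe entered the test when it was flagged well above background on 4 or more arrays, and limma 3.58.1 (R 4.3.3) was used with Benjamini-Hochberg adjustment over all 33820 tested probes, after the study's methods (a differentially expressed gene has q under 0.1 and a fold change above 1.5). Single values were compared by a two-sided exact permutation test over the 70 splits of 8 arrays. P-values measure the spread between the 4 mice of a group, whose number limits the precision. The scripts were tested on simulated data.

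Named were all members with every probe, and of each chaperone list the genes past the threshold and the 2 with the largest difference. *Manf*, *Sdf2l1*, *Dnajb2*, *Hsf1*, *Hsp90ab1* and *Hsp90b1*, and the position of probes along transcripts, were chosen after their values were seen. The members, lists and tests were chosen with earlier results of these data known. Replicate numbers were not treated as pairs. Sequences are from the array files and RefSeq.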

Additional observations from a re-analysis of the deposited data

Results flagged for a closer look

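In 8 of the 36 groups of 4 arrays checked (18 tested probes, both groups), 1 array lay far from the other 3 by Dixon's test, which chance flags in about 1 of 20 groups. Because the probes of a gene read the same tissue, the 36 are not independent.

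Of these, 3 belonged to Co replicate 2. Its *Hspa1b* signal was 12.95, with the other Co arrays at 11.58 to 11.80. Its *Dnajb1* signal was 11.75, with the others at 11.18 to 11.25. Its *Hspb1* signal was 17.68, with the others at 17.34 to 17.39.

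The other 5 belonged to *Hspa5* on replicate 4 of either group. On the 5′-most probe Co replicate 4 was at 12.82, with the other Co arrays at 13.33 to 13.40. On the middle probe Co replicate 4 was at 13.23 (others 13.84 to 13.90) and Pg replicate 4 at 13.12 (others 13.66 to 13.75). On the 3′-most probe Co replicate 4 was at 15.05 (others 15.58 to 15.63) and Pg replicate 4 at 15.10 (others 15.57 to 15.63).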

How the results depend on the processing

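The 2 member calls with q under 0.1 became 0 without normalization between arrays, with the authors' values, without the filter on dim probes and with a replicate block. They ranged from 0 to 2 over the fits that left out 1 array, and were 0 without Co replicate 4 and Pg replicate 4, a setting chosen after the data were seen. Differentially expressed member probes ranged from 0 to 1 over the leave-one-out fits, and 1 chaperone-list probe was called with the median signal. The 2 chaperone-list genes with q under 0.1 became 1 under the 75th percentile, 0 without normalization and with the replicate block, 3 with normexp, 6 with the median signal, 3 when background was to be passed on all 8 arrays, and 0 to 2 over the leave-one-out fits. Member probes with groups apart numbered 3 without normalization, 3 with the median signal and 1 with the authors' values, where the 10 members have 1 row each, and 5 to 7 over the leave-one-out fits. The members' median log2 fold change ranged from -0.094 to 0.040 over those fits, the upper end without Co replicate 2.

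The 546 differentially expressed probes of the whole array (106 higher, 440 lower) became 283 under the 75th percentile (137 higher, 146 lower), 27 without normalization (20 higher, 7 lower), 94 with normexp (66 higher, 28 lower), 108 with the median signal (75 higher, 33 lower), 106 of 28067 rows with the authors' values (60 higher, 46 lower), 372 without the filter (82 higher, 290 lower), 318 when background was to be passed on all 8 arrays, 1 without Co replicate 4 and Pg replicate 4, and 2 (without Co replicate 3) to 692 (without Pg replicate 3) over the leave-one-out fits. With the replicate block they were 0. Same-numbered arrays deviated together with correlations of 0.06, -0.03, -0.07 and 0.18, and 2 of 4 numbers matched best with themselves, so the numbers were not read as pairs.

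Signs turned only for genes that passed no test. Under the 75th percentile *Cryab* was -0.082, *Hspb7* -5.3e-05, *Hspa5* -0.037 and *Dnajb1* -0.00040. *Cryab* was -0.032 without normalization, and *Dnajb1* was -0.00044 with normexp. With the authors' values *Hspb1* was 0.028. For members with several probes the authors' row is no value of 1 probe but lies near the mean of the transcript's probes, and it gave 0.35 for *Hsp90aa1* (adjusted p = 0.163), -0.21 for *Hspa8* (0.111), -0.14 for *Hspa5*, -0.02 for *Hspb7* and -0.01 for *Hsph1*. With the authors' values only 59 of the 77 chaperone-list genes were counted, 28 of them higher and 31 lower, so the set differs from that of the main setting. Without Co replicate 4 and Pg replicate 4, *Hspa5* was -0.0097 and *Dnajb1* -0.034. Over the leave-one-out fits the ranges were -0.097 to 0.033 for *Hspb1*, -0.13 to 0.13 for *Hspa5*, -0.25 to 0.096 for *Hspa1a*, -0.22 to 0.24 for *Hspa1b* and -0.023 to 0.17 for *Dnajb1*. The log2 fold change of the 3′ *Hsp90aa1* probe was 0.47 to 0.64 and that of the 5′ *Hspa8* probe -0.33 to -0.25 over the settings that read single probes.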

Other observations

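The genes outside the lists whose levels over the 8 arrays were most like the mean of *Hspa1a*, *Hspa1b*, *Dnajb1*, *Hsph1* and *Hsp90aa1* (each scaled to unit variance) were *Gm10012*, *D730045A05Rik*, *Rasgef1c*, *Clcf1* and a transcript that the array names NAP112352-1. These 5 members do not share 1 pattern, since *Hsph1* was lowest on Co replicate 2, where *Hspa1a*, *Hspa1b* and *Dnajb1* were highest. The Pearson correlations of the 5 genes outside the lists with that mean were 0.94 to 0.95 over 8 arrays and 0.90 to 0.95 over the 7 without Co replicate 2. They are a description with no test, since the 5 were picked as the highest of all. *Gm10012* was at 8.38, 9.06, 8.58 and 8.46 on Co arrays and 8.86, 8.92, 8.87 and 8.82 on Pg arrays, so Co replicate 2 was the highest here too.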
